A study of Mus musculus with 5 samples.

Results

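Monocytes of the atherosclerotic mouse aorta were chosen as cells with RNA of Ly6c2 or Chil3 or of genes found with them. A cell was taken if it had a unique molecular identifier (UMI, 1 counted RNA molecule) of Ptprc or Tyrobp, which mark leukocytes, and UMIs of at least 2 of the genes Chil3, Ly6c2, F10 and Clec4e. Cells were left out if C1qa, a macrophage gene, or S100a8, a neutrophil gene, exceeded 2 on the deposited natural log scale, which is 6.39 UMIs per 10000 UMIs of the cell (CP10K). Cells with any UMI of Cd3e (T cells), Cd79a (B cells) or Flt3 (dendritic cells), or with at least 3 of the cell cycle genes Mki67, Top2a, Birc5, Ube2c and Cenpf, were also left out. This left 356 of 18260 cells, or 356 of 5170 leukocytes. Replicates 1 and 2 of the Apoe-/- mice held 78 and 60 of them, and replicates 1, 2 and 3 labelled Oasl1-/-Apoe-/- held 74, 72 and 72.

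Blood monocytes of the mouse fall into a classical kind with abundant Ly6C protein, which enters inflamed vessel walls through the chemokine receptor CCR2, and a patrolling kind with little Ly6C, which crawls along the endothelium and depends on the transcription factor NR4A1. In an atherosclerotic wall, classical monocytes are a source of lesional macrophages. Interferons signal through their receptors to a large set of antiviral genes, and OASL1 is known in mice to hold back translation of IRF7, a transcription factor that drives type I interferon production.

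Live cells of the aortic arch, sorted by their exclusion of the dye DAPI, were profiled by droplet sequencing of RNA 3′ ends. There were 2 libraries from Oasl1+/+Apoe-/- mice (called Apoe-/-) and 3 from Oasl1-/-Apoe-/- mice, all kept on a normal chow diet for 28 weeks. Arches of several mice were pooled (n = 6 in the series description, which does not say whether per library or per genotype). All mice lacked Apoe in every cell, which raises blood cholesterol, and the Oasl1 deletion was also in every cell, so monocytes and vessel wall lost the gene together. The p-values therefore measure the spread between libraries of pooled cells, which may be technical.

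The libraries held 3212 to 4338 cells and 16959976 to 19813039 UMIs. The gated monocytes held 275230 to 406263 UMIs per library, with medians of 3786 to 4568.5 UMIs and 1275.5 to 1484 genes per cell. Among all cells 165 barcodes occurred in more than 1 library, and among the gated cells 0 did. Smooth muscle cells, defined by their marker genes, were 66.5 and 67.7% of the Apoe-/- libraries and 46.5, 46.2 and 46.1% of the libraries labelled Oasl1-/-Apoe-/-. Oasl1 itself, on chromosome 5 (chr5:114923240-114937915, plus strand, mm10), was read in the monocytes at 0.118 and 0.0814 CP10K in the Apoe-/- libraries and at 0.669, 0.550 and 0.709 in those labelled Oasl1-/-Apoe-/-. The study's knockout removed the promoter and exon 2, whereas these reads come from the 3′ end, so Oasl1 RNA does not check the labels here and the groups are called by their labels. Apoe, absent from both genotypes by design, was read at 0.0793 to 0.26 CP10K, with overlap.

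The gate was set by measured values, so the levels of its genes describe the choice and were not tested. Ly6c2, which encodes the Ly6C antigen, stood at 5.67 and 3.63 CP10K in the Apoe-/- monocytes and at 17.0, 15.2 and 14.2 in those labelled Oasl1-/-Apoe-/-. All libraries labelled Oasl1-/-Apoe-/- were above both Apoe-/- libraries. Chil3, a secreted chitinase-like protein, was at 9.10 and 3.40 CP10K in Apoe-/- libraries and at 2.93, 3.57 and 4.37 in the others, with overlapping groups. F10 (coagulation factor X) lay between 3.91 and 6.18 CP10K and Clec4e (the lectin Mincle) between 7.20 and 11.3, also with overlap.

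Which genes admitted a cell differed widely. F10 with Clec4e and no other gate gene admitted 97 cells, Ly6c2 with F10 and Clec4e 58, all 4 genes 51, and Ly6c2 with Clec4e 43. In all, 185 cells had exactly 2 of the 4 genes, 120 had 3 and 51 had 4. Just outside the gate lay 266 cells with 1 of the 4 genes, 126 cells with at least 2 but with C1qa above the limit, and 19 with S100a8 above it. A Ly6c2 UMI was present in 207 of the 356 cells, which were 47.4 and 38.3% of the Apoe-/- monocytes and 66.2, 68.1 and 68.1% of those labelled Oasl1-/-Apoe-/-. The remaining 149 cells carried 2 or 3 of the other genes without Ly6c2.

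Other genes had not entered the rule, but they were no independent check of the label. Plac8 was named with the label when earlier results of these data were known. The macrophages and neutrophils compared here were gated on C1qa and S100a8, which the rule limits in the monocytes. The levels below therefore describe the gated cells. Plac8, a marker of monocytes, was at 28.0 and 21.2 CP10K in the Apoe-/- monocytes and at 49.8, 47.2 and 47.9 in those labelled Oasl1-/-Apoe-/-, against 0.0391 to 1.0 in macrophages gated on C1qa and 6.54 to 27.1 in gated dendritic cells. The macrophage gene C1qb was low in the monocytes, at 1.76 to 5.02 CP10K against 73.1 to 90.5 in macrophages. S100a9 was at 0 to 0.189 CP10K, against 274 to 450 in gated neutrophils, and the neutrophil genes Retnlg and Cxcr2 were at 0 in every gated monocyte. Of 15 neutrophil genes 7 were at 0 in the monocytes. The list summed to 1.99 to 4.74 CP10K there, against 391 to 544 in neutrophils and 0.419 to 0.663 in macrophages. Csf3r, another neutrophil gene, was found in 12.6% of the monocytes and 12.9% of the macrophages. Ccr2 was at 1.49 to 2.11 CP10K in the monocytes, above the 0.0641 to 0.230 of macrophages.

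The list of classical monocyte genes was less clear than these markers. Of its 31 genes, 10 were highest in the monocytes among the 4 gated leukocyte types and 17 were highest in neutrophils, which share the S100 and adhesion genes of the list. Of 18 patrolling monocyte genes, 7 were highest in the monocytes, among them Ace. Cells with a UMI of Ace or Treml4, genes of patrolling monocytes, numbered 60 (16.9%), and 27 of them also had Ly6c2. An Ace UMI was present in 38 gated cells and a Treml4 UMI in 31. Ace was also found in 19.6 to 24.4% of smooth muscle cells, whereas Treml4 was found in 0% of them. An Ace UMI alone therefore does not mark a patrolling monocyte here. The gated cells were therefore not shown to be classical monocytes alone.

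**Figure D1:**
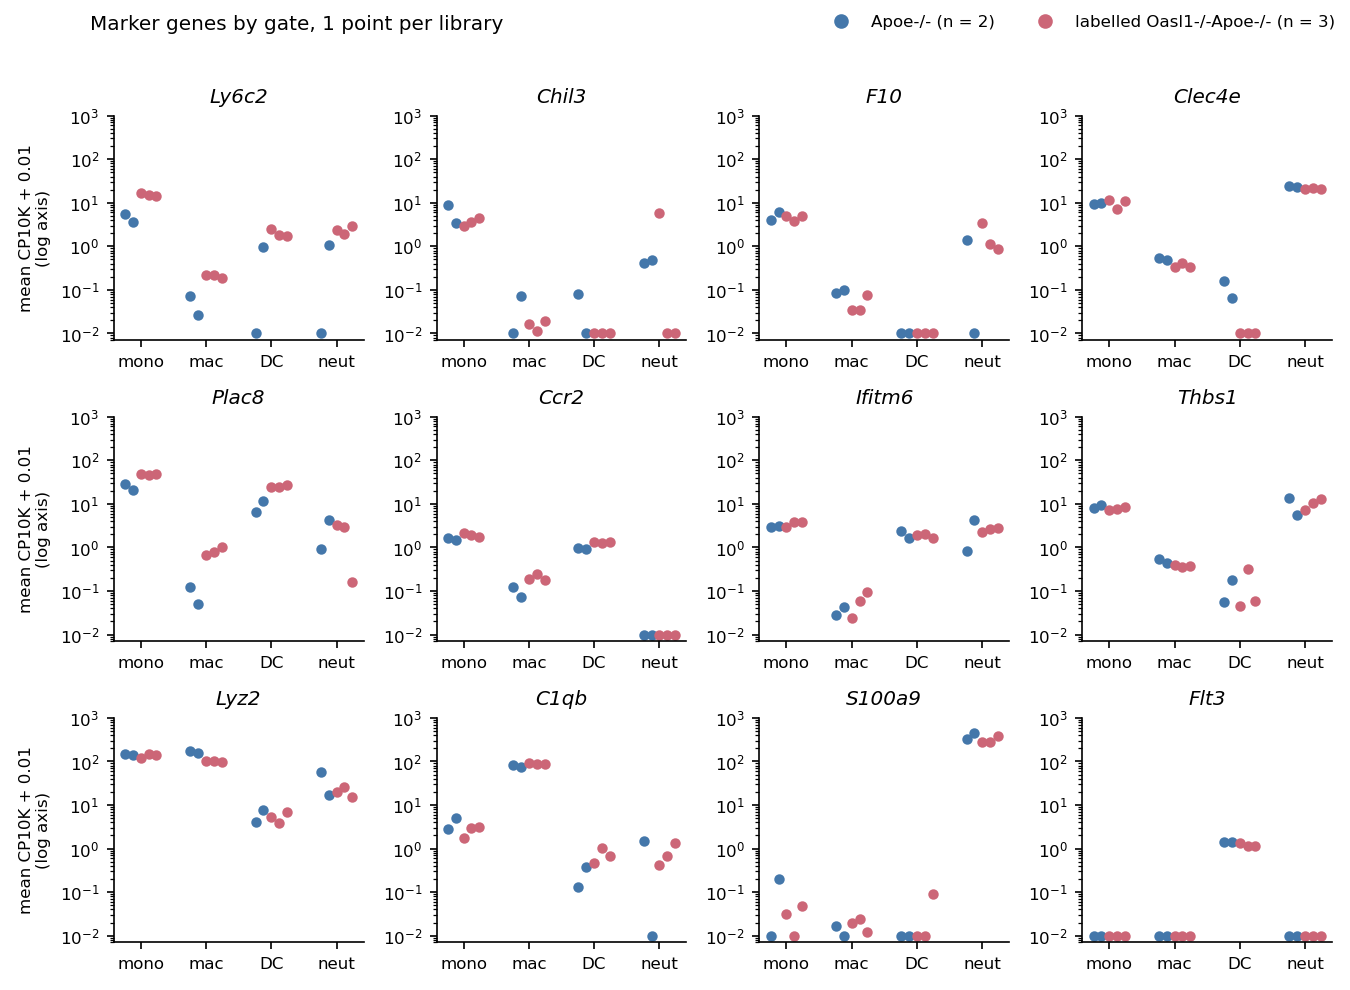
Mean level of 12 genes (CP10K + 0.01, log axis) in gated monocytes (mono), macrophages (mac), dendritic cells (DC) and neutrophils (neut), 1 point per library. Ly6c2, Chil3, F10, Clec4e and Flt3 entered the gate, whereas Plac8, at 21.2 to 49.8 CP10K, and C1qb, at 1.76 to 5.02, were not used for it.

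Cells with and without Ly6c2 differed in other genes too. Averaged over the libraries, Plac8 was at 54.2 CP10K in cells with Ly6c2 and at 15.8 in cells without it, Ms4a4c at 6.74 and 1.03, and Ccr2 at 2.26 and 1.0. In the opposite direction stood Fabp5, at 16.2 and 35.8 CP10K, Gpnmb at 3.39 and 11.9, Arg1 (arginase 1) at 1.41 and 5.41, and Inhba (the activin A subunit) at 2.05 and 8.47. These levels describe cells split by a gate gene, and no test was made of them. C1qa, limited by the rule, was at 0.314 and 0.542 CP10K.

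Monocytes were a small share of the libraries. They made up 1.91 and 1.38% of all cells in the Apoe-/- libraries and 2.17, 2.24 and 2.23% in those labelled Oasl1-/-Apoe-/-, a difference of 0.567 percentage points (exact two-sided permutation test, p = 0.1, the smallest that 2 against 3 libraries allow). The Wilson 95% intervals of these shares, for counting error only, were 1.54 to 2.38 and 1.08 to 1.78% and then 1.74 to 2.72, 1.78 to 2.81 and 1.77 to 2.80%. As a share of leukocytes they were 9.68 and 7.54% against 6.00, 6.27 and 6.07%, a difference of -2.49 percentage points (exact permutation p = 0.1). With smooth muscle cells left out of the denominator and all gated monocytes kept, the shares were 5.70 and 4.28% against 4.07, 4.17 and 4.14%, a difference of -0.866 points. Leaving out every cell with both Acta2 and Myh11 also removed 10 and 4 gated monocytes of the Apoe-/- libraries and 2, 3 and 1 of the others, and gave a difference of -0.623 points, from 5.50 and 4.42% to 4.28, 4.32 and 4.42%. The direction of the share thus followed the denominator, and a change in monocytes cannot be told apart from a change in the other cells. Adjustment over the 3 tests of shares left p at 0.1.

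Gene expression was then compared between the groups over the 5 libraries, to ask what Oasl1 deficiency accompanies in these cells. The mean CP10K of the gated cells in each library was tested by limma on the scale of log2(mean + 0.05), over 7597 genes outside the gate, and a gene was called at a p below 0.05 after Benjamini-Hochberg adjustment. Calls were made for 197 genes (2.59%), of which 115 (1.51%) rose and 82 (1.08%) fell under the label Oasl1-/-Apoe-/-. Both groups lay apart in all 197, as they did in 2152 (28.3%) of all genes tested, and the median difference of all genes was -0.04. Leaving out a library gave 94 calls without Apoe-/- replicate 1, 58 without Apoe-/- replicate 2, 130, 127 and 141 without replicates 1, 2 and 3 labelled Oasl1-/-Apoe-/-.

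Interferon-stimulated genes were the list with most genes called higher. Of 57 tested genes of a type I interferon list, 31 rose and 0 fell, 56 had a positive difference, and the median log2 difference was 1.40. The list's summed level was 65.3 and 62.6 CP10K in the Apoe-/- monocytes and 158, 136 and 137 CP10K in those labelled Oasl1-/-Apoe-/-. Both Apoe-/- libraries were below all 3 others. The count was 17 and 18 without Apoe-/- replicates 1 and 2, and 16, 20 and 26 without replicates 1, 2 and 3 labelled Oasl1-/-Apoe-/-. It was 11 of 57 by limma-voom on summed UMIs, 20 on the scale of summed UMIs per 10000, 16 of 56 with at least 3 of the 4 gate genes and 20 of 56 when the gate was set on cells thinned to 1000 UMIs.

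Ifi27l2a, an interferon-inducible gene picked after its values were seen, had the smallest adjusted p of all genes. It was at 10.2 and 8.61 CP10K in Apoe-/- monocytes and at 34.7, 32.5 and 37.8 in those labelled Oasl1-/-Apoe-/-, with no overlap. The log2 difference was 1.89 ± 0.12 (SE, limma adjusted p = 1.1e-08). It was found in 73.1 and 68.3% of the Apoe-/- cells and in 98.6, 95.8 and 98.6% of the cells of the other group. In smooth muscle cells it was found in 3.87 and 3.64% and in 33.1, 34.9 and 33.4%, at median depths of 4676 to 5292 UMIs per cell.

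Isg15 (chr4:156199424-156200818, minus strand) encodes the ubiquitin-like modifier that is coupled to proteins after interferon. Its levels were 1.03 and 0.784 CP10K in Apoe-/- monocytes and 7.87, 5.47 and 3.23 in those labelled Oasl1-/-Apoe-/-. Replicate 3 was the lowest of its group, and still above both controls. The log2 difference was 2.46 ± 0.26 (SE, limma adjusted p = 1.11e-05). Rtp4, a chaperone of receptor trafficking induced by interferon, was at 0.477 and 0.243 against 2.76, 2.07 and 2.04 CP10K (log2 difference 2.56 ± 0.27, limma adjusted p = 1.11e-05).

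The largest rise on the log2 scale was that of Ifit3 (chr19:34583531-34588731, plus strand), whose protein binds foreign RNA together with its relatives. It had 0 and 1 UMIs in the Apoe-/- monocytes and 36, 52 and 11 in those labelled Oasl1-/-Apoe-/-, found in 14, 8 and 6 cells. The ratio of UMI rates was 52.5, with an exact 95% interval from 9.20 to 2092 for counting error only, and the log2 difference of 3.85 ± 0.50 (SE, limma adjusted p = 0.000108) depends on the offset of 0.05. Its near copy Ifit3b, which may share reads with it, was at 0 in both Apoe-/- libraries and missed the threshold (limma adjusted p = 0.0578).

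Ifi213, of the DNA-sensing Ifi200 family, had 2 UMIs in the Apoe-/- group and 74 in the other (ratio 19.6, exact 95% counting interval 5.24 to 165). Phf11b was at 0.121 and 0.279 CP10K against 2.59, 1.33 and 0.971 (log2 difference 2.71 ± 0.37, limma adjusted p = 0.000189). Both belong to families of similar genes, so that reads may be split among copies. Irf7 was at 1.78 and 0.681 against 2.65, 2.21 and 1.93 CP10K, with no overlap, and missed the threshold (limma adjusted p = 0.0841). Oasl1, named above, was itself among the interferon genes that rose (log2 difference 2.21 ± 0.37, limma adjusted p = 0.00127).

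**Figure D2:**
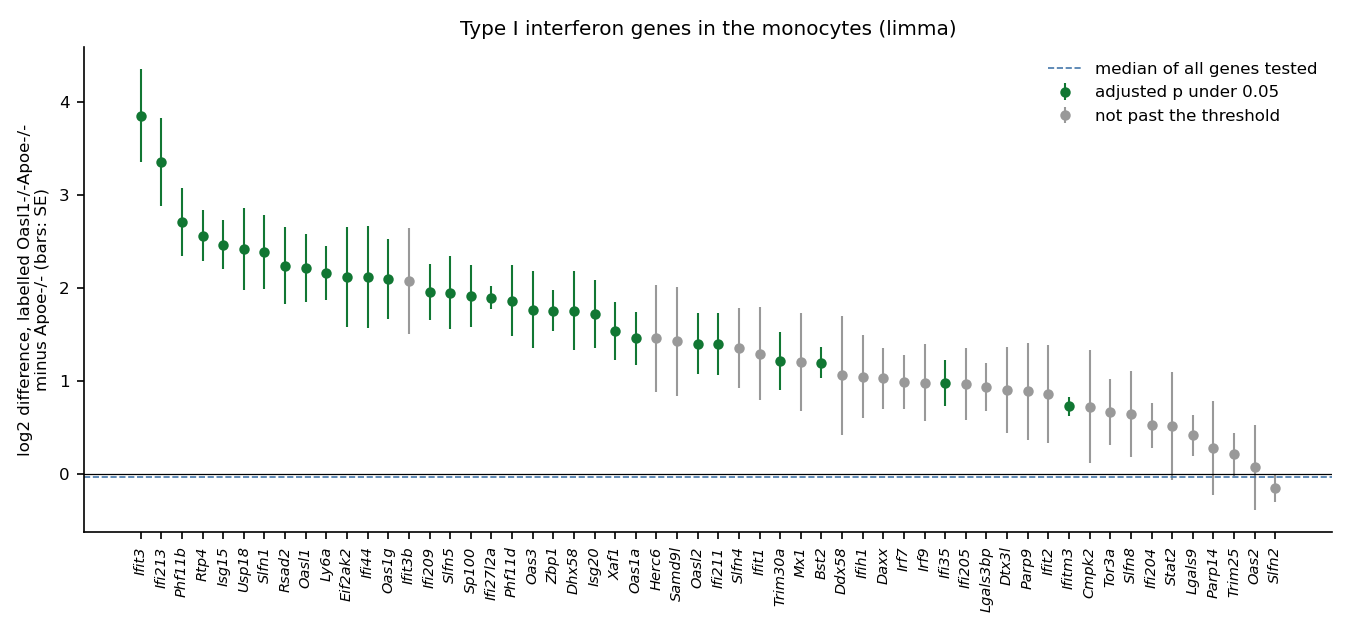
Log2 difference (labelled Oasl1-/-Apoe-/- minus Apoe-/-, points) with its SE (bars) for 56 of the 57 tested type I interferon genes in the monocytes. Green points passed the limma threshold, grey points did not, and Slfn2 alone lay below 0.

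Promoters of these genes were searched for the element through which type I interferon acts. The interferon-stimulated response element was written as GAAA, any 2 bases and GAAA again, on either strand, within 250 bases before and 50 after each gene's start (RefSeq promoters, GRCm38.p6). Of the 31 interferon genes called higher, 24 matched a promoter and 14 of these (58.3%) held the element, as did 8 of 20 (40%) matched interferon genes that were tested and not called. It was present in 268 of 6047 (4.43%) matched genes tested and in 3.99% of all promoters. Among the called higher genes outside the list it was present in 4 of 67 (5.97%), namely B2m, Spp1, Shisa5 and H2-T22. The gamma-activated sequence, TTCNNNGAA, was present in 6 of 24 (25.0%) of the called interferon promoters and in 8.05% of matched genes tested. The windows below, of called interferon genes, are shown 5′ to 3′ on the gene's own strand with the element in capitals, which begins with TTTC where it lies on the other strand.
Ifit3 (chr19:34583363-34583392, plus strand): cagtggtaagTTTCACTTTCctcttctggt
Ifit3 (chr19:34583397-34583426, plus strand): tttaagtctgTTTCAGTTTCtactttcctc
Isg15 (chr4:156200871-156200900, minus strand): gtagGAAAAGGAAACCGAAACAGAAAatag
Rsad2 (chr12:26456553-26456582, minus strand): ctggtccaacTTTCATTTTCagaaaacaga
Ifi213 (chr1:173599326-173599355, minus strand): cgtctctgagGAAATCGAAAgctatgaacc
Oas3 (chr5:120777715-120777744, minus strand): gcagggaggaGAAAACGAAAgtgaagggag

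The Ifit3 elements began 156 and 122 bases before the gene's RefSeq start, which differs slightly from the annotated start given above, and that of Ifi213 began 73 bases before it. In Isg15 overlapping copies ran together, so that the capitals cover more than a single element. A match describes these letters only, and no binding was measured here.

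At least 3 genes of the interferon list were found in most gated monocytes of every library. With every cell thinned to 1000 UMIs, which left out 1 cell, monocytes with at least 3 genes of the list made up 56.4 and 57.6% of Apoe-/- cells and 89.2, 84.7 and 81.9% of cells labelled Oasl1-/-Apoe-/-. The difference was 28.3 percentage points (exact two-sided permutation p = 0.1, the smallest possible), and higher in 3 of 3 libraries. The median was 3 genes per cell in both Apoe-/- libraries and 6, 5 and 5 in the others. The most found in any cell was 13 and 9 in the Apoe-/- libraries and 29, 21 and 18 in the others. Single genes of the list could be rare, as Ifit3 was found in 14, 8 and 6 cells labelled Oasl1-/-Apoe-/-. The share therefore does not say that each gene was spread over most cells. Unthinned, the shares were 92.3 and 98.3% against 100, 98.6 and 100%. Smooth muscle cells, treated alike, gave 1.96 and 1.54% against 10.8, 12.4 and 12.9%.

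**Figure D3:**
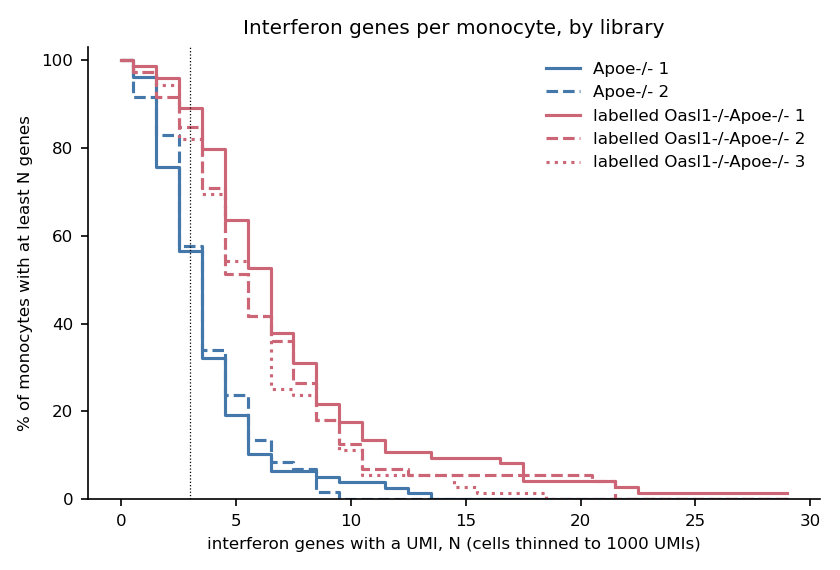
Share of monocytes (%) with at least N type I interferon genes, N on the horizontal axis, after thinning each cell to 1000 UMIs, 1 line per library. At N = 3, marked by the dotted line, the Apoe-/- lines are at 56.4 and 57.6% and the lines labelled Oasl1-/-Apoe-/- at 81.9 to 89.2%.

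The genotype difference of the interferon list was also seen in other leukocytes. In macrophages 52 of 56 tested genes of the list were called higher, with a median log2 difference of 1.52 and a background of 12.3% of genes called, 7.56% higher and 4.74% lower. In dendritic cells 16 of 57 were called higher, with a median of 1.47 and a background of 1.01%, 0.653% higher and 0.36% lower. Macrophages with at least 3 interferon genes were 24.2 and 22% against 73.5, 72.4 and 74.4%, so that Apoe-/- monocytes already stood above Apoe-/- macrophages. The number of cells behind a mean differs between the types, 2727 macrophages and 228 dendritic cells against 356 monocytes.

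The difference of the differences between cell types was tested directly. Monocytes minus macrophages gave 0 of 8484 genes (0%) past the limma threshold, with 774 at an unadjusted p under 0.05 and a smallest adjusted p of 0.339. Monocytes minus dendritic cells gave 0 of 8432 (0%), with 563 at an unadjusted p under 0.05 and a smallest adjusted p of 0.727. No gene's response was therefore shown to be particular to the monocytes. With a larger offset of 0.2 in the logarithm 5 genes passed against macrophages, namely Clec4n with a difference of 1.88 and Mgp, Ly6a, Bgn and Igfbp7 with -3.76, -2.25, -2.10 and -2.10.

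Some genes of MHC class I antigen presentation rose as well. Of 18 tested genes 5 were higher (27.8%, against 1.51% of all genes) and 0 lower, with a median log2 difference of 0.60. In macrophages 16 of 18 were higher, with a median of 0.89, and in dendritic cells 3 of 18, with a median of 0.50. B2m, the light chain of all class I molecules, was at 57.1 and 47.0 CP10K in Apoe-/- monocytes and at 91.8, 87.6 and 89.2 in those labelled Oasl1-/-Apoe-/- (log2 difference 0.79 ± 0.10, limma adjusted p = 8.67e-05). H2-Q7, H2-T22 and H2-D1, which are class I heavy chains of a family that can share reads, and Psmb8 of the immunoproteasome had log2 differences of 1.40, 1.21, 0.60 and 0.67. The count was 3 without Apoe-/- replicate 1, 1 without Apoe-/- replicate 2, 3 without replicate 1 and 3 without replicate 2 labelled Oasl1-/-Apoe-/-, and 0 in cells without Ly6c2.

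Genes of interferon gamma and guanylate-binding proteins gave a single call in the monocytes. Of 19 tested genes 1 was higher (5.26%, against 1.51% of all genes). It was the high-affinity IgG receptor Fcgr1, at 1.41 and 1.32 against 3.32, 3.13 and 3.18 CP10K (log2 difference 1.21 ± 0.19, limma adjusted p = 0.000591). In macrophages 18 of 21 tested genes of this list were higher, and in dendritic cells 3 of 21. Cxcl10, a chemokine induced by interferon, was at 0.889 and 1.29 against 1.99, 1.98 and 0.131 CP10K, with overlap. Of 8 tested MHC class II genes 0 were higher and 1 was lower, the lysosomal protease Lgmn (log2 difference -0.55 ± 0.12, limma adjusted p = 0.0156). In macrophages 7 of 10 tested class II genes were higher and 1 was lower, and in dendritic cells 0 of 11 were called. H2-Ab1 and Cd74, of class II presentation, overlapped between the groups, at 31.8 and 33.5 against 32.5, 24 and 21.1 CP10K for H2-Ab1, and 82.3 and 75.0 against 95, 75.4 and 73.6 for Cd74.

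Genes of the classical monocyte moved in part. Of 30 tested genes 6 were higher and 0 lower, with a median of 0.17. Plac8, whose levels are given above, had a log2 difference of 0.98 ± 0.12 (limma adjusted p = 3.76e-05). Ms4a4c, a membrane protein of the Ms4a family, was at 1.81 and 1.60 against 7.26, 6.95 and 5.68 CP10K, a log2 difference of 1.92 ± 0.17 (limma adjusted p = 1.45e-06).

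Over all gated monocytes S100a11, a calcium-binding protein, had a log2 difference of 0.71, and Ccl9 and Cd52 of 0.59 and 0.51. Ccr2 was at 1.65 and 1.49 against 2.11, 1.90 and 1.75 CP10K, a log2 difference of 0.28 that did not pass the threshold (limma adjusted p = 0.659), although the groups did not overlap. Lyz2 (lysozyme), Thbs1, Vcan and Cd14 overlapped between the groups. The number of classical genes called was 3 and 2 without Apoe-/- replicates 1 and 2, and 6, 4 and 3 without replicates 1, 2 and 3 labelled Oasl1-/-Apoe-/-. It was 4 with a gate that did not use Ly6c2, 2 with at least 3 of the 4 gate genes, 4 in cells with a Ly6c2 UMI and 1 in cells without. In cells without Ly6c2, Plac8 was at 16.6 and 8.57 against 16.2, 21.7 and 15.8 CP10K, with overlap. The share of cells with a Ly6c2 UMI, given above, was higher in the same libraries. Ly6c2 is a gate gene, and Plac8 and Ms4a4c were higher in cells that had it. The part of the gate in these calls was not tested.

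Patrolling monocyte genes showed no common direction. Of 18 tested genes 0 were higher and 1 was lower, Fabp4, a fatty acid carrier, at 3.18 and 2.15 against 0.719, 1.27 and 1.44 CP10K (log2 difference -1.21 ± 0.27, limma adjusted p = 0.0144). In the cells with a Ly6c2 UMI the Fabp4 difference was 0.90, so its direction depended on the cells without Ly6c2. Nr4a1 was at 3.70 and 1.99 against 4.70, 3.33 and 2.95 CP10K and Ace at 0.530 and 0.445 against 0.360, 0.446 and 0.398, both with overlap.

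Chemokine genes were the list with the next most genes called higher. Of 19 tested genes 8 were higher and 0 lower, with a median log2 difference of 1.10, and their summed level was 152 and 178 against 270, 201 and 269 CP10K. Ccl2, which recruits CCR2-bearing monocytes, was at 10.3 and 6.84 CP10K in Apoe-/- monocytes and at 19.5, 14.0 and 21.7 in those labelled Oasl1-/-Apoe-/- (log2 difference 1.10, limma adjusted p = 0.000855). Ccl7, with a related role, was at 4.96 and 3.20 against 11.2, 6.68 and 9.10 CP10K (log2 difference 1.13, limma adjusted p = 0.00242). In both genes the groups did not overlap.

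Cxcl3, a neutrophil attractant, was at 2.76 and 6.18 against 18.2, 12.4 and 10.5 CP10K (log2 difference 1.67 ± 0.25, limma adjusted p = 0.000392). When the gate was set on cells thinned to 1000 UMIs its log2 difference was -0.0079 and it was not called. Ccl12, another CCR2 ligand, was at 0.125 and 0.0547 against 0.561, 0.637 and 1.08 CP10K. Ccl8 had 2 UMIs in the Apoe-/- group and 25 in the other (ratio 6.62, exact 95% counting interval 1.65 to 57.7). Ppbp, a chemokine of platelets, had 0 UMIs in the Apoe-/- monocytes. With 3 counts over that group taken as its floor, the ratio was 3.55, which ignores the spread between cells. Pf4, also known from platelets, was higher too (log2 difference 1.65 ± 0.39, limma adjusted p = 0.0227). In macrophages 9 of 17 tested chemokine genes were higher and 0 lower. Ccl12 stood higher there than in the monocytes, at 1.70 and 1.78 against 4.91, 4.55 and 5.99 CP10K.

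The chemokine count of the monocytes rested on the controls and on the gate. It was 4 and 2 without Apoe-/- replicates 1 and 2, 4, 6 and 6 without replicates 1, 2 and 3 labelled Oasl1-/-Apoe-/-, and 1 in cells with at least 3 of the 4 gate genes. Cxcl2, another neutrophil attractant, was at 75.4 and 104 against 116, 100 and 145 CP10K, with overlap, and did not pass the threshold (limma adjusted p = 0.124). Of 11 tested chemokine receptor genes 0 were called by limma or limma-voom, and 2 had an unadjusted p under 0.05.

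Cytokines moved in both directions. Of 25 tested inflammatory genes 4 were higher and 1 was lower. Osm (oncostatin M) was at 4.18 and 4.30 against 8.99, 8.99 and 7.60 CP10K, a log2 difference of 1.0 ± 0.15 (limma adjusted p = 0.000431). Il1rn, the antagonist of the IL-1 receptor, was at 4.17 and 4.76 against 10.0, 7.13 and 7.27, and Il18 at 0.242 and 0.12 against 0.752, 0.644 and 0.544. The anti-inflammatory cytokine Il10 was lower, at 0.699 and 1.06 against 0.326, 0.195 and 0.290 CP10K (log2 difference -1.54 ± 0.35, limma adjusted p = 0.0171).

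Il1b and Tnf, the best known monocyte cytokines, did not pass the threshold. Il1b was at 34.1 and 43.4 against 52.4, 41.2 and 34.6 CP10K, with overlap (limma adjusted p = 0.79), and Tnf at 5.03 and 5.97 against 4.74, 3.8 and 3.98 (limma adjusted p = 0.296). The Il10 difference was 0.04 in cells with a Ly6c2 UMI, and that of Il18 was -0.23 in cells without one.

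Inhba, whose product forms activin A, was among the 10 largest rises. It was at 0.419 and 1.44 CP10K in Apoe-/- monocytes and at 6.39, 5.15 and 7.37 in those labelled Oasl1-/-Apoe-/-, with no overlap (log2 difference 2.91 ± 0.31, limma adjusted p = 1.11e-05). It was present in 7.69 and 11.7% of Apoe-/- cells and in 28.4, 23.6 and 26.4% of the others, against 1.65 to 3.31% of macrophages and 36.6 to 42.8% of smooth muscle cells. Smooth muscle cells, although more often positive, held 0.990 to 1.19 CP10K of it in each library.

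The Inhba difference was larger in cells without Ly6c2. There it was at 0.0934 and 1.63 against 16.1, 10.6 and 13.9 CP10K, and in cells with Ly6c2 at 0.780 and 1.14 against 1.41, 2.59 and 4.31. Cells without Ly6c2, tested alone, gave 21 called genes, 13 higher and 8 lower. The higher genes included Inhba (log2 difference 4.77), Cxcl3 (2.17), Clec4n (1.76), Arg1 (1.76), Spp1 (1.73) and Ifi27l2a (1.59), and the lower genes included Fabp5 (-1.21) and Mgp (-2.63). Arg1 over all gated cells had a log2 difference of 1.22 (limma adjusted p = 0.0519). Whether the genotype difference itself differed between cells with and without Ly6c2 was not tested.

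Isg15 and Ifi27l2a, by contrast, stood higher in the cells with Ly6c2. There Isg15 was at 1.64 and 1.02 against 11.1, 6.96 and 4.49 CP10K, and without Ly6c2 at 0.485 and 0.636 against 1.64, 2.29 and 0.562, where the groups overlapped. Of the interferon list 19 of 57 genes were called higher in cells with Ly6c2, where 69 of 7493 genes (0.921%) were, and 1 of 51 in cells without it, where 13 of 7633 (0.17%) were. Calls of any kind were fewer in the smaller set of cells. Ifi27l2a, that gene, was at 14.5 and 13.6 against 42.6, 40 and 47.1 CP10K with Ly6c2, and at 6.24 and 5.52 against 19.2, 16.4 and 17.8 without it.

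Clec4n, the lectin receptor Dectin-2, was at 4.52 and 3.27 against 12.0, 10.4 and 12.8 CP10K (log2 difference 1.59 ± 0.16, limma adjusted p = 5.69e-06). It was 1 of 8 tested C-type lectin genes to be called. Spp1 (osteopontin) was at 47.6 and 45.0 against 104, 98.3 and 139 CP10K (log2 difference 1.28 ± 0.12, limma adjusted p = 2.14e-06), with the groups apart in every library. Tnfrsf9, the costimulatory receptor 4-1BB, had 0 UMIs in the Apoe-/- monocytes. In those labelled Oasl1-/-Apoe-/- it had 34, 12 and 42 UMIs, held by only 9, 5 and 4 cells. With 3 counts taken as the Apoe-/- floor the ratio was 8.28, which ignores the spread between cells. It was called in cells without Ly6c2 (limma adjusted p = 0.00243) and not in cells with it (limma adjusted p = 0.348). The uridine phosphorylase Upp1 and the phospholipase Pla1a had log2 differences of 2.63 and 2.49, and Plaur, the urokinase receptor, of 0.74.

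**Figure D4:**
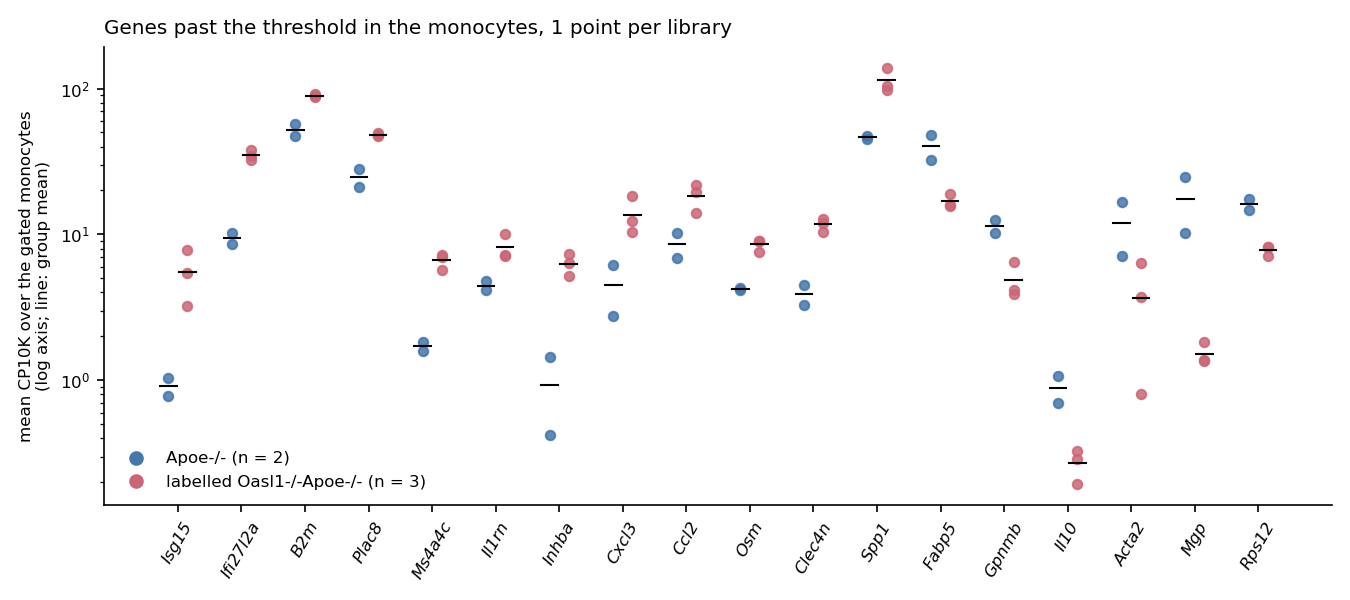
Level of 18 genes in the monocytes (CP10K, log axis), 1 point per library, with lines at the group means. Isg15, Ifi27l2a, Inhba, Cxcl3 and Clec4n are higher in all 3 libraries labelled Oasl1-/-Apoe-/-, and Fabp5, Gpnmb, Il10, Mgp and Rps12 are lower in all 3.

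Macrophage genes that also occur in the gated monocytes went both ways. Of 19 tested genes 3 were higher, Spp1, Pf4 and Cd72, and 4 were lower, with a median log2 difference of -0.32. Gpnmb, a glycoprotein of foamy macrophages, was at 10.2 and 12.5 against 4.15, 3.93 and 6.49 CP10K (log2 difference -1.25 ± 0.19, limma adjusted p = 0.000466). Its log2 difference was -0.18 in cells with Ly6c2 and -1.01 in cells without, and neither passed the threshold (limma adjusted p = 0.872 and 0.257). In cells with Ly6c2, whose share differed between the groups, 0 macrophage genes were called lower by limma. The selenium carrier Selenop and the lysosomal membrane protein Cd63 had log2 differences of -0.93 and -0.72. The 4 lower genes became 1 without Apoe-/- replicate 2, 2 without replicate 3 labelled Oasl1-/-Apoe-/- and 0 in cells with at least 3 gate genes, and the 3 higher genes became 1 without Apoe-/- replicate 1 and 2 without each other library.

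Of 23 tested genes of lipid handling and lysosomes, 1 was higher, the tetraspanin Cd9, and 4 were lower. Fabp5, a fatty acid binding protein, was at 32.6 and 48.1 against 15.7, 19.0 and 16 CP10K (log2 difference -1.23 ± 0.14, limma adjusted p = 2.79e-05). The cathepsins Ctsd and Ctsb fell by 0.52 and 0.44 on the log2 scale. In macrophages 12 of 22 genes of the list were lower and 0 higher. The 4 lower genes of the monocytes became 1 without either Apoe-/- replicate, and 1 and 2 without replicates 1 and 2 labelled Oasl1-/-Apoe-/-, and Cd9 was not called without Apoe-/- replicate 2. Fabp5 was also lower in the cells without Ly6c2, at 41.8 and 67.6 against 18.6, 28.1 and 23 CP10K.

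Some genes outside the lists were picked after their values were seen. Hmox1, which breaks down heme, was at 7.51 and 12.7 against 3.68, 2.65 and 4.70 CP10K (log2 difference -1.44 ± 0.22, limma adjusted p = 0.000564). Ass1, an enzyme of arginine synthesis, was at 1.66 and 1.24 against 4.72, 6.22 and 4.36 (log2 difference 1.78 ± 0.20, limma adjusted p = 1.73e-05). Gdf15, a stress-induced cytokine, was at 6.58 and 3.47 against 2.58, 1.43 and 1.17 CP10K. Erythrocyte genes summed to 2.43 and 74.9 against 22.3, 0.645 and 0.627 CP10K in the same cells, and their part in Hmox1 was not tested.

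Ribosomal protein genes were the list with most genes called lower. Of 81 tested genes 25 were lower and 0 higher, with a median log2 difference of -0.34, and their summed level was 1639 and 1696 against 1258, 1371 and 1322 CP10K. Rps12 was at 14.8 and 17.4 against 7.16, 8.16 and 8.20 CP10K (log2 difference -1.03 ± 0.14, limma adjusted p = 0.000123), and Rpl5, Rpl30 and Rpl12 had differences of -0.89, -0.87 and -0.84. The count was 8 and 1 without Apoe-/- replicates 1 and 2, and 16, 15 and 18 without replicates 1, 2 and 3 labelled Oasl1-/-Apoe-/-. It was 23 in cells with Ly6c2, where 56 of all genes (0.747%) were lower, and 0 in cells without, where 8 (0.105%) were. It was 2 when the gate was set on cells thinned to 1000 UMIs. In macrophages 37 of 81 were lower and 3 higher.

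Several of the largest falls were genes of the vessel wall. Of 10 tested smooth muscle genes 5 were lower, with a median of -1.91, and the smooth muscle list summed to 37.7 and 17.8 CP10K in the Apoe-/- monocytes and to 12.1, 9.77 and 1.94 in the others. In dendritic cells the same sum was 11.7 and 11.8 against 1.62, 1.20 and 4.06, and in macrophages 24.8 and 16.1 against 15.3, 16.4 and 12.4. The share of smooth muscle cells in the libraries, given above, was higher in the Apoe-/- libraries, and its part in these values was not tested. The smooth muscle count was 0 without Apoe-/- replicate 1 and 0 without Apoe-/- replicate 2, and 1 by limma-voom on summed UMIs.

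Mgp, a matrix protein that inhibits calcification, was at 10.3 and 24.6 against 1.84, 1.37 and 1.35 CP10K (log2 difference -3.36 ± 0.25, limma adjusted p = 1.14e-07). It was found in 30.8 and 41.7% of the Apoe-/- monocytes and in 40.5, 38.9 and 50% of the others, so that the shares of cells overlapped where the levels did not. Acta2 and Tagln, of the contractile apparatus, were at 16.8 and 7.16 against 6.39, 3.74 and 0.810 and at 7.92 and 4.55 against 1.93, 2.07 and 0.288 CP10K. Eln, Gas6, Col18a1, Serpine2 and Tpm2 had log2 differences of -2.36, -2.57, -2.37, -2.27 and -2.18. In cells with no UMI of Acta2, Tagln, Myh11 or Mgp, Eln was at 2.19 and Col18a1 at -0.11 on that scale, and neither was called.

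Sfrp1, a secreted inhibitor of Wnt signaling, had 30 UMIs in the Apoe-/- group and 3 in the other (ratio 18.9, exact 95% counting interval 5.87 to 96.6). Lyz1, which may share reads with Lyz2, had 0 UMIs in the monocytes labelled Oasl1-/-Apoe-/-. With a floor of 3 counts over that group it was 12.6-fold lower there, which ignores the spread between cells. Gm43301, a predicted gene, was at 0.64 and 0.8 CP10K in the Apoe-/- monocytes and listed at 0 in the others. Its absence was not limited to monocytes. Smooth muscle cells held 0.781 and 0.684 CP10K of it in the Apoe-/- libraries and 0 in all 3 others. Macrophages and dendritic cells of those 3 libraries also held 0 (log2 differences -5.33 and -3.25). The gene lies on chromosome 5 (chr5:122581469-122584853, plus strand), as does Oasl1. The cause of its absence was not tested.

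The cells without any UMI of Acta2, Tagln, Myh11 or Mgp numbered 110. In them 4 genes were called, all higher, namely Ccl7, Isg15, Rtp4 and Ifi27l2a, with log2 differences of 6.00, 2.92, 2.82 and 1.59. The interferon list gave 3 calls there, and the smooth muscle and ribosomal lists gave 0.

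The other lists held few calls, where 1.51% of all genes were called higher and 1.08% lower. Heat shock genes gave 2 higher of 16, Hspa1a and Hspa8 with log2 differences of 1.41 and 0.63, and glycolysis genes 2 of 17, Eno1 and Ldha with 0.73 and 0.57. Coagulation and fibrinolysis genes gave 2 higher of 10, Plaur and Anxa2. Mitochondrially encoded genes gave 1 lower of 12, mt-Nd2, and immediate early genes 1 lower of 16, Egr1. A single call in so short a list says little about the list. In macrophages 7 of 12 mitochondrially encoded genes were lower and 0 higher, and 10 of 16 immediate early genes were higher and 1 lower. Toll-like receptor genes (20 tested), dendritic cell genes (10), neutrophil genes (5), lymphocyte genes (3), fibroblast genes (7), endothelial genes (6), erythrocyte genes (5) and clock genes (6) gave 0 calls by limma. With the chemokine receptors these lists held 73 tested genes, of which 14 had an unadjusted p under 0.05 and 0 were called by limma-voom.

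**Figure D5:**
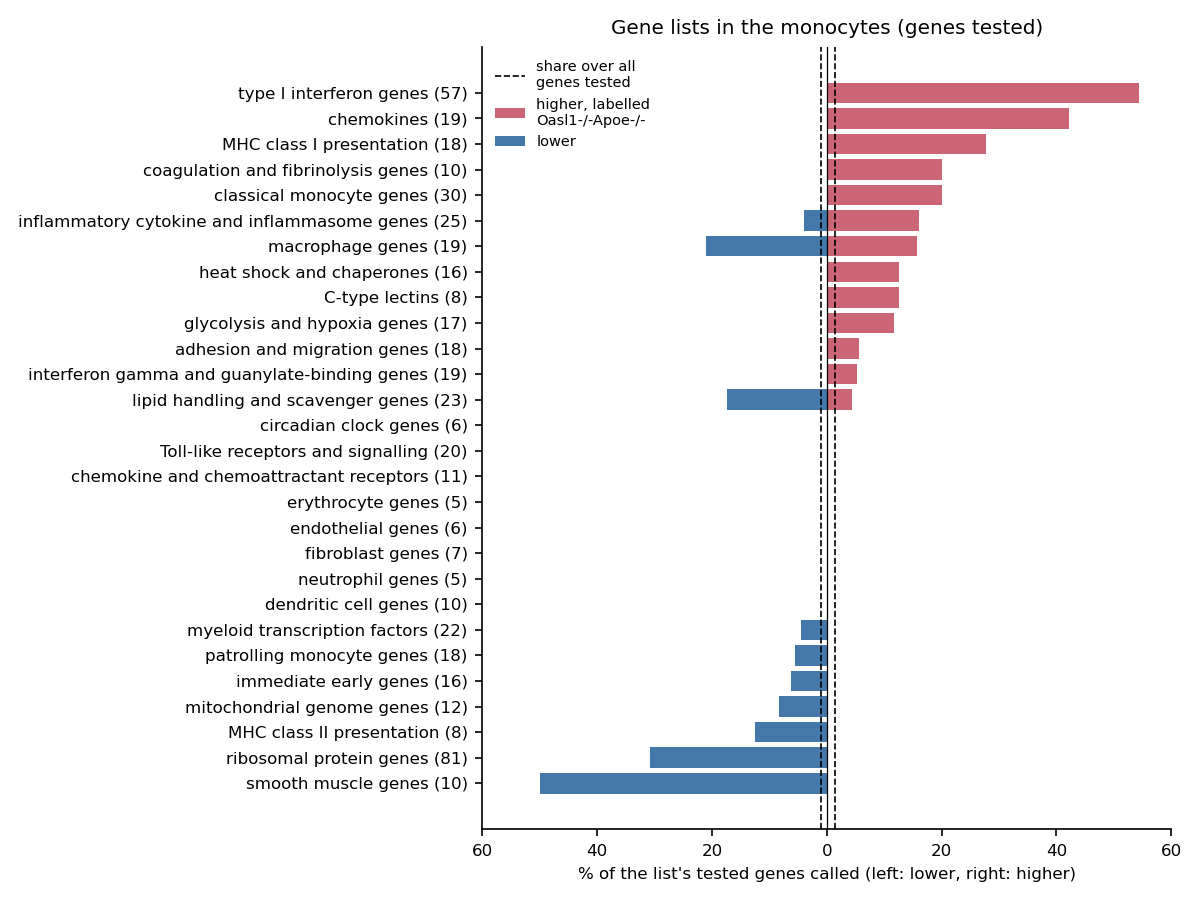
Share of tested genes (%) called higher or lower by limma in the libraries labelled Oasl1-/-Apoe-/-, for each list with at least 5 tested genes. The dashed lines give the shares over all 7597 genes, 1.51% higher and 1.08% lower, against 31 of 57 type I interferon genes higher and 5 of 10 smooth muscle genes lower.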

How the data were processed

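Aortic arch cells were profiled with 10x Genomics 3′ v2 chemistry. Per the labels and the study's methods, the authors used Cell Ranger 3.1.0 with mm10 and Seurat 4.0.3, removed predicted doublets with DoubletFinder, and deposited 1 table of 16498 genes by 18260 cells as natural log values, ln(1 + UMIs per 10000). No further doublet caller was run. Whole UMIs were recovered from the deposited values (100% of values within 0.01 of a whole number). A library's value was the mean CP10K over its gated cells, so cells of different depth count equally.

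Genes with a mean of at least 0.05 CP10K, outside the 16 gate genes, were tested with limma 3.58.1 (R 4.3.3, trended variance, Benjamini-Hochberg) on log2(mean CP10K + 0.05), which understates changes of low genes. Differences are the libraries labelled Oasl1-/-Apoe-/- minus Apoe-/-. Counting intervals were exact (95%) and cover counting error only. The test was checked on simulated counts, with a spread between libraries that was set and not estimated from these data. It recovered 30 of 100 genes changed 2-fold and 89 of 100 changed 4-fold, and called 3 other genes. The changed genes were drawn from those with a mean of at least 0.2 CP10K, so recovery of lower genes was not checked. A gene that missed the threshold may therefore still differ 2-fold. Alternatives included limma-voom on summed UMIs with TMM scaling factors. Macrophages were leukocytes with C1qa above the limit, neutrophils those with S100a8 above it, dendritic cells those with at least 2 dendritic genes, and smooth muscle cells other cells with both Acta2 and Myh11.

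The members and the 29 gene lists were chosen with earlier results of these data known. Named were the 10 called genes with the largest rise and fall, Oasl1, Apoe and Plac8, and the called genes of the lists with the largest differences, 62 in all, and other genes were given as list members or chosen after their values were seen. Some genes of the lists are not reported here.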

Additional observations from a re-analysis of the deposited data

How the results depend on the processing

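The count of 197 called genes (115 higher, 82 lower) varied with the libraries and with the cells gated. It was 142 with a gate that did not use Ly6c2, 88 (55 higher, 33 lower) with at least 3 of the 4 gate genes, 126 (71 higher) with C1qa and S100a8 at 0, and 61 (52 higher, 9 lower) when the gate was set on cells thinned to 1000 UMIs. In 3 alternatives chosen after seeing the data it was 125 (69 higher) in cells with a Ly6c2 UMI, 21 (13 higher, 8 lower) in cells without, and 4 (4 higher, 0 lower) in cells with no UMI of Acta2, Tagln, Myh11 or Mgp. These sets hold fewer cells. Leaving out each library gave 58 to 141 calls, 44 to 88 higher and 14 to 61 lower. Centring on the median gene raised the percentage of calls that were higher from 58.4 to 65.9, and limma-voom gave 135 calls, 111 of them shared.

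Some directions reversed. The difference in share of all cells became -0.623 points without cells holding both Acta2 and Myh11, and -0.866 points with all gated monocytes kept, a version added after seeing the data. Without smooth muscle UMIs, Eln was at 2.19, Cald1 at 1.96, Apoe at 0.028 and Eno1 at -0.0057 on the log2 scale. Fabp4 was at 0.51 with at least 3 gate genes and 0.90 with Ly6c2, Cxcl3 at -0.0079 under the thinned gate, Il18 at -0.23 without Ly6c2 and Il10 at 0.045 with it. The cause was not tested. An offset of 0.2 gave 5 genes, in place of 0, that differed between monocytes and macrophages. Leaving out a library kept the shares at 0.303 to 0.832 points of all cells and -3.56 to -1.42 of leukocytes, and that of cells with at least 3 interferon genes at 26.3 to 29.9.

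Replicate numbers 1 and 2 occur in both groups, but nothing says that equal numbers share animals or a day. With the replicate number as a block 192 genes were called, 161 of them shared. Over the 62 named genes and all settings, 888 of 1285 results kept their direction and side of the threshold, 388 lost significance and 9 reversed. With 60 to 78 cells per library, differences of low genes rest on few UMIs.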
